A study of Mus musculus with 32 samples.

Results

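Insig1, Insig2, Scap and Srebf2 are the sterol-sensing genes of the endoplasmic reticulum. They were measured in mouse liver through every array probe whose symbol in the platform annotation is one of these 4 names. The rule found 9 of 25697 probes on the female arrays and 8 of 24613 on the male arrays. The genes were chosen by earlier measured values of these arrays, the lower Insig1 reading in high-fat females of mothers on 9% protein, so every member value of that contrast is a description with no p. They are 4 of 16593 named genes on the female arrays and of 15967 on the male arrays. Insig1 has 4 probes on the female arrays and 3 on the male arrays, Insig2 has 3 on each, and Scap and Srebf2 have 1 each.

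The livers came from C57bl/6J OlaHsd mice aged 20 weeks, whose mothers ate during pregnancy either a low-protein diet labelled 9%, containing 90 g casein per kg, or the 18% control diet. The offspring were given either a high-fat diet, labelled 36%, or a control diet from 6 weeks of age, for 14 weeks. In each sex there were 4 groups of 4 arrays: high-fat offspring of mothers on 9%, control-diet offspring of mothers on 9%, high-fat offspring of mothers on 18% and control-diet offspring of mothers on 18%. The study asked how a mother's protein supply shapes the liver's response to high fat in each sex. Females and males were run on different array versions, so their levels cannot be set against each other, and litter is not in the labels.

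The protein SCAP carries SREBP precursors, among them SREBP2 (from Srebf2), from the endoplasmic reticulum to the Golgi, where the site-1 protease (Mbtps1) and the site-2 protease (Mbtps2) release the active transcription factor. When sterols are abundant, INSIG1 and INSIG2 hold SCAP in the endoplasmic reticulum, and SREBP-driven transcription of sterol and fatty acid genes falls. Insig1 is itself an SREBP target, whereas Insig2 in mouse liver has a liver-specific transcript that insulin lowers.

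The 250 bases before an annotated transcription start of Insig1, Insig2 and Srebf2 are shown because these genes stand on both sides of this loop, as brakes and as the transcription factor. In RefSeq, build GRCm38.p6, Insig1 lies at chr5:28071412-28078662, Insig2 at chr1:121304353-121332662, Scap at chr9:110333288-110384949 and Srebf2 at chr15:82147269-82205379. The sequences are from the same build, written 5′ to 3′ on the strand of the gene. They lie at chr5:28071162-28071411 on the plus strand for Insig1, chr1:121332590-121332839 on the minus strand for the first of 3 Insig2 windows, and chr15:82147019-82147268 on the plus strand for Srebf2. Capitals mark a match, on either strand, to the sterol-element-like letters TCACNCCA, the E-box CACGTG or the box CCAAT, which reads ATTGG on the other strand; no marked matches overlap.
Insig1: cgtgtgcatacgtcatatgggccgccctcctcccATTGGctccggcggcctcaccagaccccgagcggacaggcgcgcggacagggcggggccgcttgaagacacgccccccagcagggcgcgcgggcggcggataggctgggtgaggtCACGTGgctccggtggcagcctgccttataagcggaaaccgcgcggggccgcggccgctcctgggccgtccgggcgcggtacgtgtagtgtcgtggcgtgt
Insig2: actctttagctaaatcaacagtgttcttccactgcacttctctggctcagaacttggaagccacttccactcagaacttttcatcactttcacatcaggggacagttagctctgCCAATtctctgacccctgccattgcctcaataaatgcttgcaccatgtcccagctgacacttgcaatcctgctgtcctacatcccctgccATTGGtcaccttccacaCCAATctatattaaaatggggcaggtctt
Srebf2: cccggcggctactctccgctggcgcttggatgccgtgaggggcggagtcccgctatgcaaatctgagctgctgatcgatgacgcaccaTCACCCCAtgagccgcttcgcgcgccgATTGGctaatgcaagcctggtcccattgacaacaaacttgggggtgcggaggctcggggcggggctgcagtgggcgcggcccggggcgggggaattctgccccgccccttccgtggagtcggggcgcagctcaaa
In the Insig1 window the E-box begins 101 bases and the ATTGG 216 bases before the start. The Srebf2 window has the sterol-element-like letters TCACCCCA 162 bases and ATTGG 135 bases before the start, and the first Insig2 window has the CCAAT letters at 3 places. The other 2 Insig2 windows have none of the 3 motifs, and of the 2 Scap windows 1 has an E-box. Of 32851 such windows 3.67% hold the sterol-element-like letters, 6.02% the E-box and 33.8% the CCAAT box. A match is a description of the letters, and its absence says only that they are not in this window.

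Mean raw intensity ran from 300.0 to 461 on the 16 female arrays and from 170.0 to 309 on the 16 male arrays, and 44.0% to 47.3% and 43.7% to 47.2% of probes were detected above background. The 4 dimmest female arrays were all high-fat, 3 from mothers on 9% and 1 from mothers on 18%. Mean raw intensity was 349, 313, 300 and 410 in high-fat 9% females, against 453, 409, 461 and 366 in control 9% females. Brightness and diet can therefore not be fully told apart in females of mothers on 9%. Of the hepatocyte markers on the arrays, 8 of 8 in females and 7 of 7 in males were detected on every array. The adipocyte markers Adipoq and Retn were detected on 0 female arrays, and each on at least 1 male array but not on all. Their summed linear level in males reached 61.4 in high-fat 9%, 45.6 in control 9%, 46.8 in high-fat 18% and 47.7 in control 18%, and its part in the male results was not tested. Summed hepatocyte markers ranged, on the linear scale, from 104855 to 108412 in high-fat and from 105284 to 112520 in control-diet females of mothers on 9%. The endothelial receptor Stab2 fell by 0.41 ± 0.10 on the log2 scale in those high-fat females (SE, limma adjusted p = 0.0345), the 1 call among 4 tested endothelial markers, and its part in the results was not tested. In bulk tissue, fewer cells of a type and less RNA per cell cannot be told apart. Of the probes of the 4 genes, 8 of 9 in females and 8 of 8 in males passed the filter of detection on at least 4 of 16 arrays. The probe left out, Insig1 ILMN_2620965, was detected on 0 of 16 female arrays. Its female group means ran from 4.40 in high-fat 9% to 4.48 in control 9% (normalised log2 intensity).

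Insig1 encodes a brake on SCAP and is itself an SREBP target. In high-fat females of mothers on 9%, the mean of each of its 3 tested probes was lower than on the control diet, with differences of -1.99, -0.43 and -0.48 log2. All levels below are normalised log2 intensities, and probe levels are compared only within a probe.

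At probe ILMN_2895388, the high-fat arrays of mothers on 9% read 9.57, 6.51, 9.13 and 9.32, against 10.87, 10.03, 11.12 and 10.50 on the control diet. All 4 high-fat arrays lay below all 4 control arrays, and one of them lay far below the rest of its group. After mothers on 18%, the high-fat arrays read 9.47, 9.46, 9.66 and 9.61, against 10.79, 10.15, 10.48 and 9.11 on the control diet. Here 1 control array was lower than every high-fat array, so the groups overlapped.

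The group means at this probe ran, lowest to highest, 8.63 ± 1.43 in high-fat 9%, 9.55 ± 0.10 in high-fat 18%, 10.13 ± 0.73 in control 18% and 10.63 ± 0.48 in control 9% (SD, n = 4 each). The high-fat difference after 9% was -1.99 ± 0.50 log2 (SE), a level 3.98 times lower. It was the 1 of 8 tested probes of these genes past the adjusted threshold of 0.05 in the fit, beside 4.42% of all 12561 probes, and the 1 whose groups did not overlap in the lower direction, beside 5.71%. An unadjusted p under 0.05 was reached by 4 of the 8, beside 21.7% of all. These counts are no test and nothing is read from them, because the contrast was known. After 18% the difference was -0.58 ± 0.50 (95% interval -1.64 to 0.48, limma adjusted p = 0.689). None of the 8 probes passed there, beside 0.0637% of all probes, and 0 had an unadjusted p under 0.05, beside 12.0%.

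Between the maternal diets, control-diet females differed at this probe by 0.50 (interval -0.56 to 1.56). High-fat females differed by -0.91 ± 0.50, and by -0.21 without the array at 6.51. Both are given with no p, since each uses 4 arrays of the known contrast, the control 9% or the high-fat 9% arrays. The high-fat effect after 9% minus that after 18% was -1.41 ± 0.71 (SE), again a description, and -0.70 without that array.

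Readings at ILMN_2895388 moved with array brightness. Over the 16 female arrays of all groups together, which share one normalisation, r with log2 mean raw intensity was 0.68. It was 0.54 at ILMN_2606693 and 0.59 at ILMN_1245272. With brightness as a covariate the difference after 9% at ILMN_2895388 was -1.32 and no longer past the threshold. Brightness and diet cannot be fully told apart in this comparison. Leaving out the 4 dimmest arrays, a setting chosen after seeing the data, kept 1 high-fat 9% array, replicate 4, which differed from the control mean by -1.31. With 1 array in that group, and the spread taken from the other groups, whether it passes says nothing about stability. Without the array at 6.51, replicate 2, the difference was -1.29 and still past the threshold. It was not past it when control 9% replicate 1, 3 or 4, or high-fat 9% replicate 3, was left out, although the difference then lay between -1.83 and -2.16. As the contrast was known, whether it passed in each setting is a description and no test.

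Probe ILMN_2606693 read 9.17, 8.45, 9.18 and 9.75 in high-fat females of mothers on 9%, against 9.70, 9.03, 9.41 and 10.15 on the control diet. After 18% it read 8.68, 9.54, 9.33 and 9.88 with high fat, against 10.47, 9.20, 9.38 and 9.47 without. The groups overlapped in both comparisons. The differences were -0.43 ± 0.32 after 9% and -0.28 ± 0.32 after 18% (SE), and after 18% the interval was -0.95 to 0.40 (limma adjusted p = 0.778). The difference after 18% was 0.005 without control 18% replicate 1 and -0.45 without high-fat 18% replicate 4.

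Probe ILMN_1245272 read 8.89, 8.46, 8.76 and 9.39 in high-fat females of mothers on 9%, against 9.46, 8.93, 9.19 and 9.84 on the control diet. After 18% it read 8.35, 9.39, 8.97 and 9.65 with high fat, against 10.15, 9.02, 9.02 and 9.21 without. Again the groups overlapped in both comparisons. Its differences were -0.48 ± 0.29 after 9% and -0.26 ± 0.29 after 18% (SE; limma adjusted p = 0.775 after 18%). The difference after 18% was 0.009 without control 18% replicate 1 and -0.44 without high-fat 18% replicate 4. The 1 high-fat 9% array kept without the 4 dimmest, replicate 4, was the highest of its group at both probes, and differed from the control mean by 0.18 at ILMN_2606693 and 0.03 at ILMN_1245272. Over the 16 female arrays these 2 probes had r = 0.98 with each other, while ILMN_2895388 had r = 0.61 and 0.55 with them, given as descriptions. Whether ILMN_2895388 changed more than the other 2 probes was not tested, and where each probe lies on the transcript is not analysed here.

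**Figure D1:**
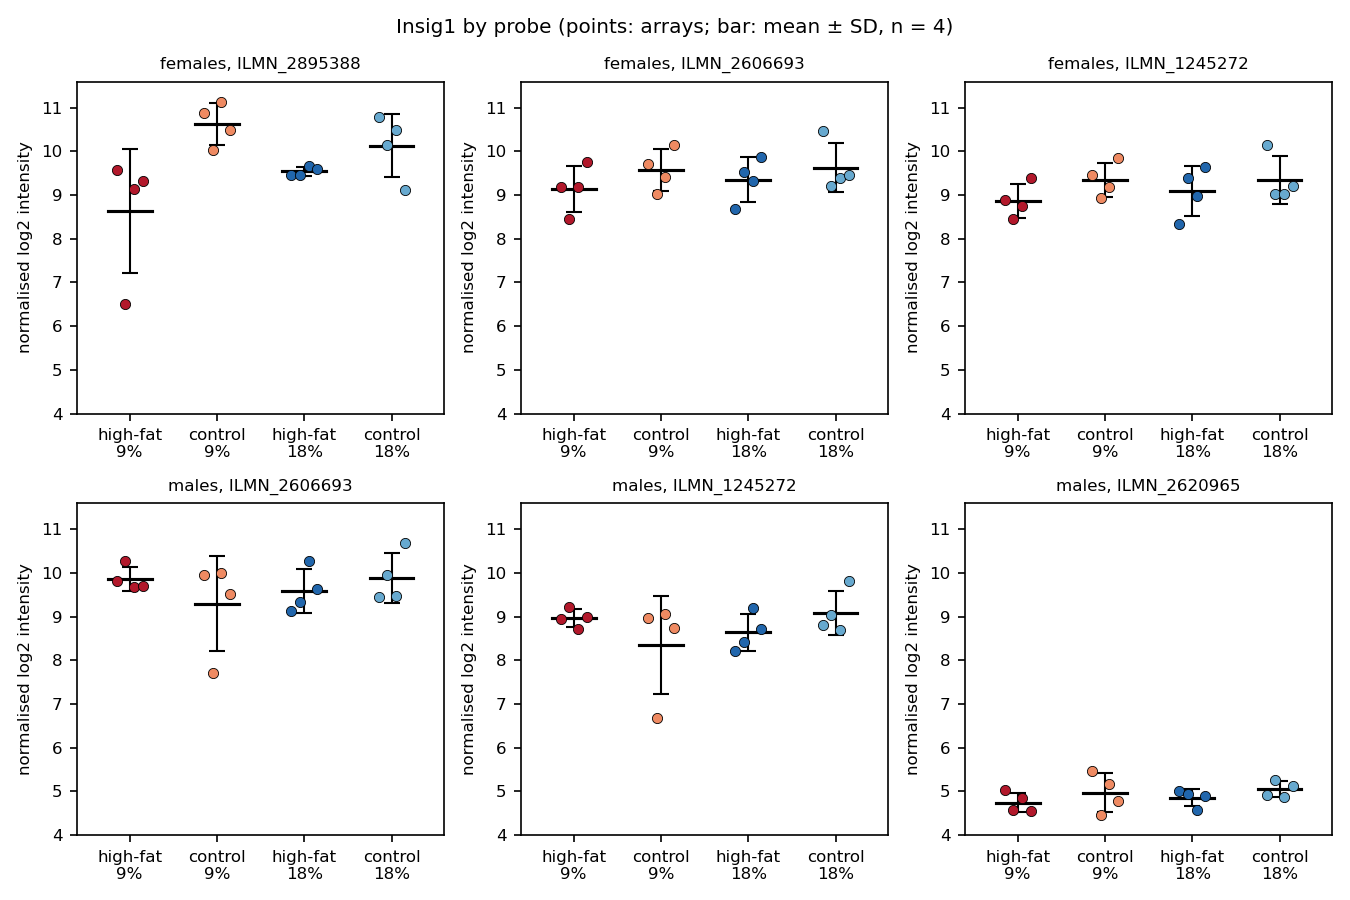
Normalised log2 intensity (y axis) of each tested Insig1 probe in the 4 groups of each sex (x axis: offspring diet over maternal protein), with points for arrays and bars for mean ± SD of 4. At ILMN_2895388 all 4 high-fat 9% females lie below the control 9% females, with 1 array at 6.51.

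**Figure D2:**
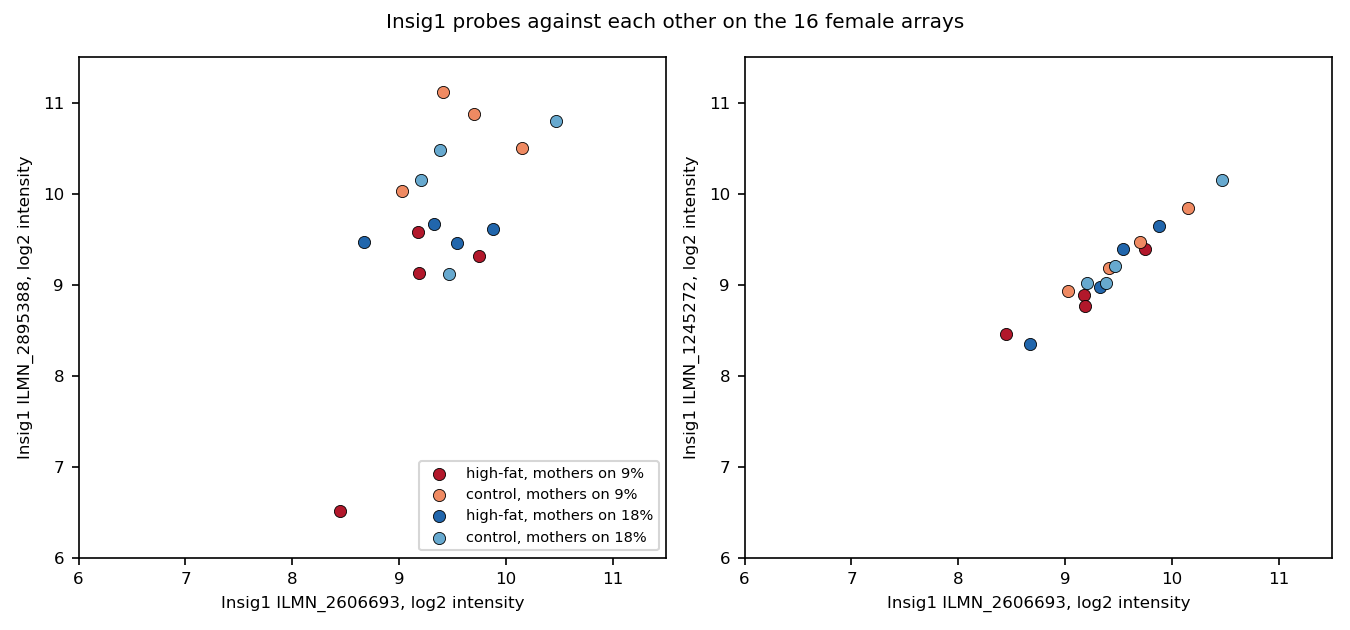
Insig1 probe ILMN_2895388 (left, y axis) and ILMN_1245272 (right, y axis) against ILMN_2606693 (x axis), in log2 intensity, for the 16 female arrays coloured by group. The right panel forms a narrow band (r = 0.98) and the left panel a wide one (r = 0.61), with the array at 6.51 apart from the others.

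In males no Insig1 difference passed the threshold. Probe ILMN_2895388 is not among the male probes that carry the Insig1 symbol, so it has no male value here. ILMN_2606693 read 9.81, 10.27, 9.68 and 9.70 in high-fat males of mothers on 9%, against 9.96, 7.71, 10.00 and 9.53 on the control diet. The groups overlapped, and 1 control array lay well below all others.

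The difference after 9% was 0.57 ± 0.41 (SE, interval -0.30 to 1.43, limma adjusted p = 0.662), and 0.04 without that array, control replicate 2. After 18% high-fat males read 9.12, 9.32, 10.28 and 9.62, against 9.45, 9.95, 9.48 and 10.68, and the difference was -0.30 ± 0.41 (interval -1.17 to 0.57, limma adjusted p = 0.742). The high-fat effects after 9% and after 18% differed by 0.87 ± 0.58 (limma adjusted p = 0.712), which did not pass.

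ILMN_1245272 read 8.95, 9.22, 8.71 and 9.00 in high-fat males of mothers on 9%, against 8.97, 6.69, 9.05 and 8.73 on the control diet, with the low reading on the same array as before. After 18% it read 8.21, 8.42, 9.20 and 8.72, against 8.81, 9.03, 8.70 and 9.81. The groups overlapped, and the difference was 0.61 (limma adjusted p = 0.620) after 9%, 0.05 without control replicate 2, and -0.45 (limma adjusted p = 0.609) after 18%. The dim probe ILMN_2620965 was detected on 10 of 16 male arrays. It read 5.02, 4.57, 4.84 and 4.55 in high-fat males of mothers on 9%, against 5.47, 4.45, 5.18 and 4.77 on the control diet, and the groups overlapped. Its differences were -0.22 after 9% and -0.19 after 18% (limma adjusted p = 0.705 and 0.638). Over the 16 male arrays r with log2 mean raw intensity was -0.51 at ILMN_2606693, -0.45 at ILMN_1245272 and 0.22 at ILMN_2620965. With brightness as a covariate the difference after 18% was -0.58 at ILMN_2606693 and -0.69 at ILMN_1245272. None of the 8 male probes passed the threshold after 9%, beside 0.214% of 12173 probes, nor after 18%, beside 0.591%. Unadjusted p was under 0.05 for 0 of the 8 in either, beside 10.5% and 14.7% of all probes.

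Between maternal diets, ILMN_2606693 in males differed by 0.28 on high fat (limma adjusted p = 0.898) and by -0.59 on the control diet (interval -1.46 to 0.28, limma adjusted p = 1.00). The control-diet difference was -0.06 without control 9% replicate 2.

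Insig2, the second INSIG brake, had a higher mean reading in high-fat females of mothers on 9% than in the other 3 female groups. At ILMN_1216822 these read 13.52, 12.00, 12.88 and 12.30, against 11.75, 12.76, 11.53 and 11.35 on the control diet. After 18% high-fat females read 11.97, 11.79, 11.18 and 10.87, against 11.22, 11.87, 11.44 and 11.96. One control 9% array lay within the high-fat 9% range, and the high-fat 9% arrays lay above both groups of mothers on 18%.

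As a description, the high-fat difference after 9% was 0.83 ± 0.34 at ILMN_1216822, 1.28 ± 0.51 at ILMN_1234858 and 0.72 ± 0.33 at ILMN_2690256 (SE). After 18% it was -0.17 ± 0.34 (interval -0.88 to 0.54, limma adjusted p = 0.886), 0.02 ± 0.51 and -0.06 ± 0.33 at the same probes. The effect after 9% minus that after 18% was 1.00 ± 0.47 at the first, given without a test. Female Insig2 readings ran against array brightness, with r of -0.47 to -0.54 over the 16 arrays. With brightness as a covariate the differences after 9% were 0.59, 0.80 and 0.42 at the same probes. Single arrays also moved them. At ILMN_1216822 the difference was 0.54 without high-fat 9% replicate 1 and 1.13 without control 9% replicate 2. In the array annotation 2 of these probes belong to one RefSeq transcript of Insig2 and the third to another, and their readings had r of 0.97 to 0.98 over the 16 arrays.

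Between maternal diets, high-fat females of mothers on 9% read higher than those of mothers on 18% at each Insig2 probe. At ILMN_1216822 the difference was 1.22 ± 0.34 (SE, interval 0.51 to 1.93, a level 2.33 times higher). The lowest reading of the 9% group was 12.00 and the highest of the 18% group 11.97. All 4 arrays lay above all 4 of the other group at ILMN_1216822 and ILMN_2690256, 2 of the 8 probes tested, beside 2.01% of all probes in that direction. The differences at ILMN_1234858 and ILMN_2690256 were 1.67 and 1.09. None of the 8 probes passed and 3, all of Insig2, had an unadjusted p under 0.05, beside 0% and 9.29% of all probes. This comparison uses the same 4 high-fat arrays as the known contrast, so its values and counts are a description, with no p for any member.

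On the control diet, Insig2 in females of mothers on 9% differed from mothers on 18% by 0.22 at ILMN_1216822 (interval -0.48 to 0.93). None of the 8 probes passed (0% of all probes did, and 6.19% had an unadjusted p under 0.05). This comparison uses the control 9% arrays of the known contrast, so it too is a description with no p for any member.

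In males, mean Insig2 readings were higher with high fat after either maternal diet, and no difference passed the threshold. ILMN_1216822 read 12.06, 12.69, 11.12 and 12.86 in high-fat males of mothers on 9%, against 11.91, 11.72, 10.78 and 12.29. After 18% it read 11.99, 12.56, 11.31 and 11.88, against 10.88, 11.26, 10.22 and 12.37. Within each pair of groups the arrays overlapped.

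The differences were 0.51 ± 0.44 after 9% (SE, interval -0.41 to 1.43, limma adjusted p = 0.717) and 0.76 ± 0.44 after 18% (interval -0.17 to 1.68, limma adjusted p = 0.428). At ILMN_1234858 they were 1.17 and 1.31 and at ILMN_2690256 0.41 and 0.74, with limma adjusted p between 0.395 and 0.760. Single arrays moved these values by over 1.5 times. The after-18% difference at ILMN_1234858 was 0.61 without control 18% replicate 3 and 1.88 without control 18% replicate 4. At ILMN_1216822 it was 0.44 and 1.15 without the same arrays, and the difference after 9% there was 0.21 without control 9% replicate 3 and 0.86 without high-fat 9% replicate 3. At ILMN_2690256 the difference ran from 0.16 to 0.68 after 9% and from 0.43 to 1.12 after 18% over the same arrays. Each of these differences was above 0.

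Scap, the sterol-sensing escort, had no female difference past the threshold. High-fat females of mothers on 9% read 8.30, 8.93, 8.44 and 8.69, against 8.65, 8.78, 8.64 and 8.67 on the control diet. The difference was -0.09 ± 0.14 after 9% and -0.04 ± 0.14 after 18% (SE; after 18% the interval was -0.35 to 0.26, limma adjusted p = 0.932). After 18% it read 8.50, 8.84, 9.17 and 8.98 with high fat, against 8.90, 8.96, 8.73 and 9.06 without. The groups overlapped in both comparisons. The maternal diet gave -0.28 in high-fat females and -0.23 in control-diet females (interval -0.53 to 0.07), both with no p since they use arrays of the known contrast.

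In males the largest Scap difference was between maternal diets on high fat. High-fat males of mothers on 9% read 8.13, 7.95, 8.23 and 7.92, against 9.21, 8.32, 8.31 and 8.52 in high-fat males of mothers on 18%. All 4 of the first group lay below all 4 of the second, 1 of 8 member probes, beside 1.59% of all probes in that direction. The difference was -0.53 ± 0.17 (SE, interval -0.90 to -0.17), with unadjusted p = 0.00703 and limma adjusted p = 0.708, and it was -0.32 without high-fat 18% replicate 1. Among the 8 male probes 0 passed and 1 had an unadjusted p under 0.05, beside 0% and 6.85% of all probes.

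On the control diet, males of mothers on 9% differed from those of mothers on 18% at Scap by -0.11 (limma adjusted p = 1.00), and 0 of the 8 probes passed (0% of all, with 4.07% at an unadjusted p under 0.05). The high-fat difference was -0.22 after 9% (limma adjusted p = 0.692) and 0.20 after 18% (limma adjusted p = 0.601), and the interaction of diets was -0.42 ± 0.24 (limma adjusted p = 0.667). None of the 8 male probes passed for the interaction, beside 0% of all probes and 7.26% with an unadjusted p under 0.05. In females the interaction also gave 0 calls over all probes, with 5.21% at an unadjusted p under 0.05.

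Srebf2, the gene of the transcription factor itself, had no difference past the threshold in either sex. High-fat females of mothers on 9% read 6.64, 6.84, 6.83 and 6.91, against 6.80, 7.16, 6.49 and 7.00 on the control diet. After 18% the female readings were 6.66, 7.43, 6.70 and 7.32 with high fat, against 7.23, 6.95, 6.62 and 7.14 without. The female groups of each maternal diet overlapped, and every female difference lay between -0.22 and 0.04. In high-fat males of mothers on 9% it read 5.55, 6.55, 5.66 and 5.48, against 5.69, 5.17, 5.55 and 5.49 on the control diet.

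These male groups overlapped, with 1 high-fat reading above all others, and the difference was 0.33 ± 0.23 (SE, interval -0.16 to 0.82, limma adjusted p = 0.641). After 18% high-fat males read 5.64, 6.09, 5.45 and 5.44, against 5.88, 5.81, 5.38 and 6.26, and the difference was -0.18 (limma adjusted p = 0.733).

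**Figure D3:**
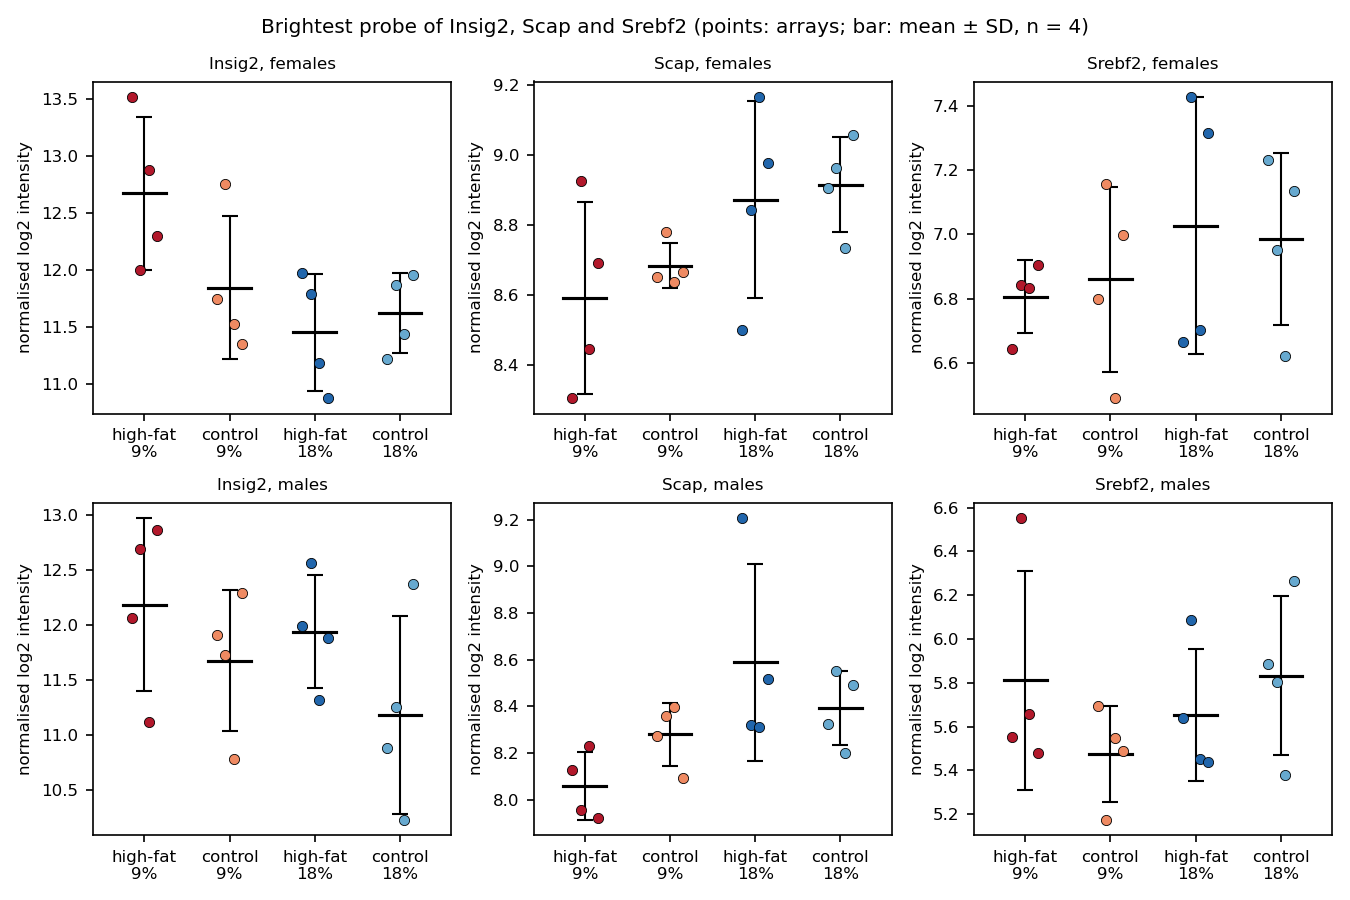
Normalised log2 intensity (y axis, its own range in each panel) of the brightest probe of Insig2, Scap and Srebf2 in the 4 groups of each sex (x axis), with points for arrays and bars for mean ± SD of 4. High-fat 9% females have the highest mean for Insig2, and high-fat 9% males lie below high-fat 18% males for Scap.

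**Figure D4:**
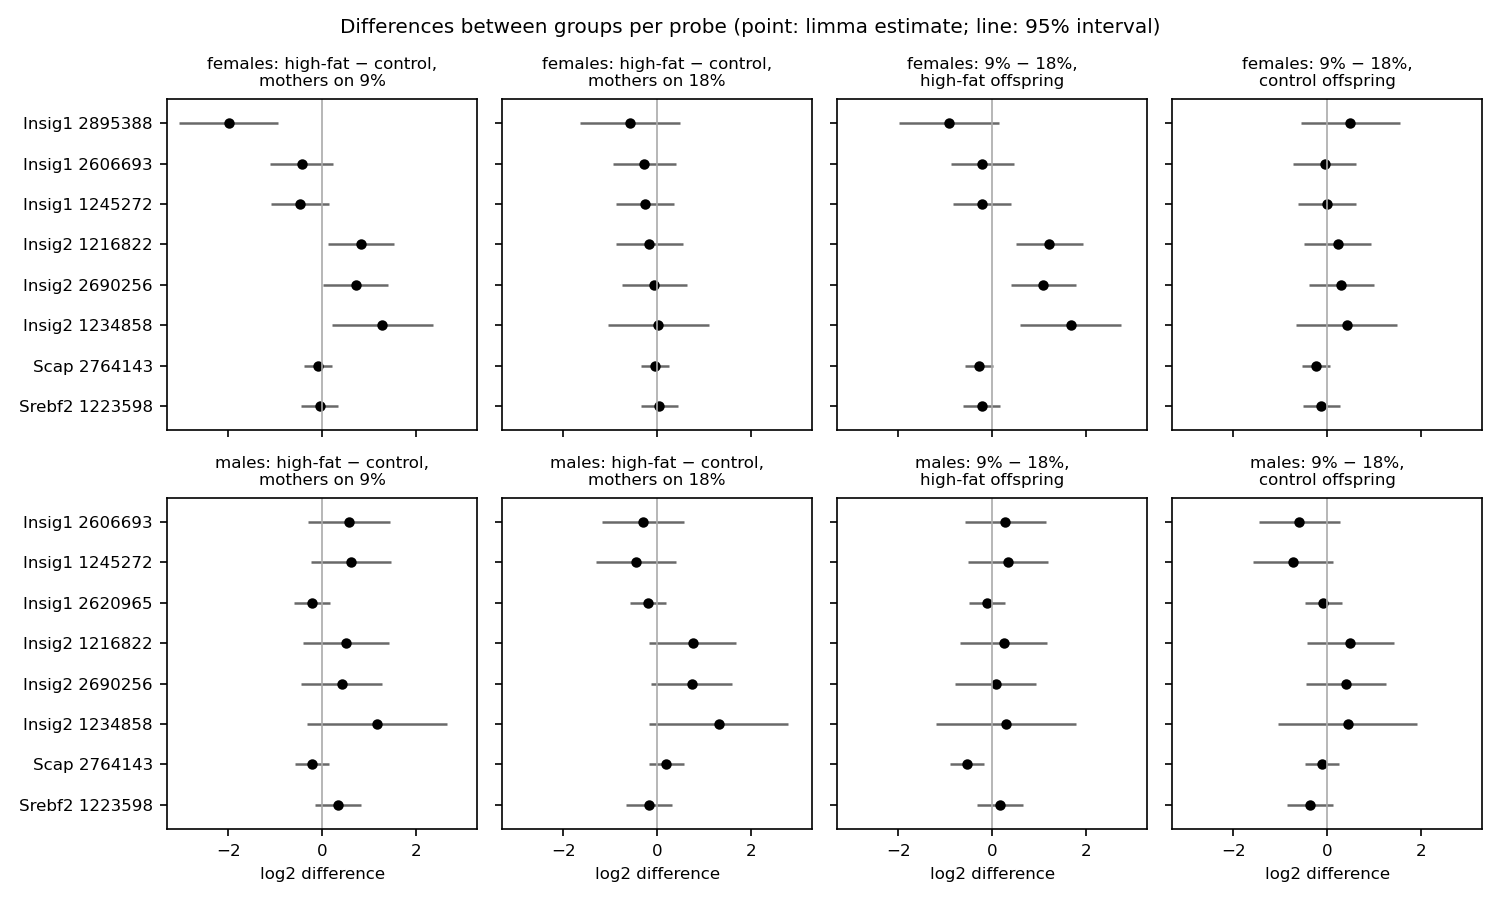
Log2 difference (x axis) of each tested probe (y axis) in 4 comparisons per sex, as limma estimate with its 95% interval. Insig1 ILMN_2895388 is at -1.99 in females after 9%, the 3 Insig2 probes lie to the right of 0 in the 9% minus 18% panel of high-fat females, and female Srebf2 lies between -0.22 and 0.04.

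Beside these 4 genes, the other genes of the pathway were counted by the brightest probe of each gene. The lists were chosen with earlier results of these data known, so their calls and p-values are a description and no test. In high-fat females of mothers on 9%, 2 of 15 tested enzymes of cholesterol synthesis that SREBP2 activates rose and 0 fell, beside 2.30% of all probes called higher and 2.12% called lower, and the list's median difference was 0.64 log2, against -0.0012 over all genes. Those were Dhcr7, the last enzyme of the pathway, at 1.04 ± 0.19 (SE, limma adjusted p = 0.00903), and Tm7sf2, a sterol reductase, at 0.71 ± 0.12 (limma adjusted p = 0.00882). All 15 differences were above 0.

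Of 12 tested enzymes of fatty acid synthesis that SREBP1c activates, 3 rose and 0 fell, with a median of 0.66. They were the desaturases Fads2, at 1.26 ± 0.25 (SE, limma adjusted p = 0.0139), and Fads1, at 0.72 ± 0.10 (limma adjusted p = 0.00345), and the elongase Elovl5, at 0.69 ± 0.12 (limma adjusted p = 0.00882). Of 10 tested genes of LDL uptake and lysosomal cholesterol 1 fell, Sort1, the sorting receptor sortilin, at -0.86 ± 0.22 (limma adjusted p = 0.0370), with a list median of -0.08. None passed among 9 genes of SREBP processing and transport, 10 of INSIG partners and sterol-linked degradation in the endoplasmic reticulum and 8 of sterol efflux, whose medians were -0.03, -0.05 and -0.08.

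These calls also changed when array brightness entered the fit, and brightness cannot be fully told apart from diet in this comparison. With brightness as a covariate 0 enzymes of cholesterol synthesis, 1 of fatty acid synthesis and 0 LDL genes passed. Sort1 was also not called with no filter on dim probes, nor without control 9% replicate 1, 3 or 4 or high-fat 9% replicate 1 or 3. In every other comparison of either sex 0 genes of the 6 lists passed.

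Among the enzymes of cholesterol synthesis 14 of 15 differences were above 0 in females of mothers on 18% (median 0.47), 16 of 16 in males of mothers on 9% (median 0.40) and 14 of 16 in males of mothers on 18% (median 0.26). Over all genes the medians were 0.0028, -0.02 and 0.0074 in the same order. The comparisons after 9% and after 18% share no arrays, but the arrays of a sex share one normalisation and one fit. The lists were chosen with earlier results known. As targets of one factor these genes are not replicates, so the signs are a description and no test.

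Srebf1, the gene of the SREBP1 factors, was measured in females at -0.20 ± 0.41 after 9% (SE, limma adjusted p = 0.820) and 0.10 after 18% (limma adjusted p = 0.946). Its male probe was detected on 0 of 16 arrays, as was every Mbtps2 probe in both sexes. Mbtps1 differed by -0.03 and 0.10 in females and 0.08 and -0.19 in males after 9% and 18%, with limma adjusted p between 0.548 and 0.926.

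**Figure D5:**
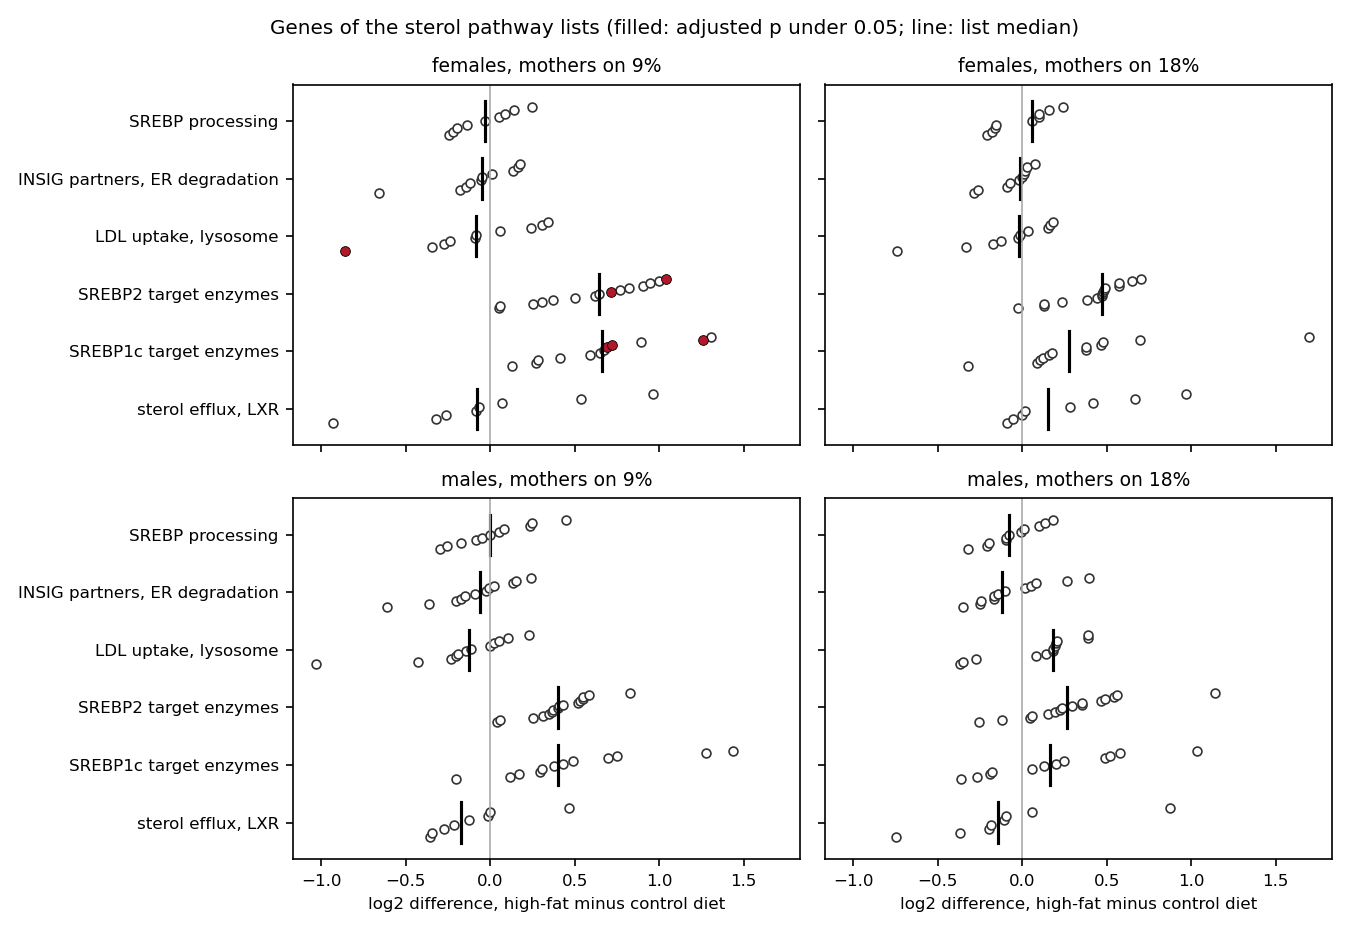
Log2 difference between high-fat and control diet (x axis) for the tested genes of 6 pathway lists (y axis), by sex and maternal diet; filled points passed an adjusted p of 0.05 and the black line is the list median. The filled points are all in females of mothers on 9%, and the cholesterol synthesis list lies mostly above 0 in all 4 panels.

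The genes whose readings followed each member most closely over the 16 arrays of a sex are given as a description. For female Insig1 (ILMN_2895388) they were Glud1, a glutamate dehydrogenase, with r = 0.91, Rars, an arginyl-tRNA synthetase, with 0.90, Ppp1cb, a phosphatase subunit, with 0.89, Slco1b2, a hepatic organic anion transporter, with 0.89, and Ccdc47, with 0.88. That probe had r of only 0.61 and 0.55 with the other tested female Insig1 probes, so its list may not hold for them. For male Insig1 (ILMN_2606693) they were Slc25a15, a mitochondrial ornithine carrier, with 0.94, Clic4 with 0.94, Rab6a with 0.93, Ybx1 with 0.93 and Eif4g2 with 0.92. The female list includes the array at 6.51 and the male list the array at 7.71, and their weight was not tested.

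For Insig2 they were Ube2u (r = 0.90) and Lrfn3 (0.89) in females, and Pnpla7 (0.91) and Clpx (0.89) in males. For Scap they were Cela2a (0.83) and Wdr5 (0.81) in females, and Tomm70a (0.91) and Tcea3 (0.90) in males. For Srebf2 they were Hnrnpul1 (0.86) and Psme1 (0.76) in females, and Tank (0.78) and Rspo4 (0.75) in males. These were the highest values among 11818 female or 10708 male probes.

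Among the 4 members themselves, 15 relations over arrays were computed after their values had been seen, 3 of them with a further female Insig1 probe. None passed after adjustment over the 15. The values had been seen and the female arrays include those of the known contrast, so the p-values are a description and no test. Values over all 16 arrays of a sex also hold differences between the groups. The smallest adjusted permutation p was 0.108 for Insig2 with Scap in females (n = 16, Pearson's r = -0.64, Spearman's rho = -0.49 with adjusted permutation p = 0.205). It was -0.29 without the 2 arrays farthest from the Insig2 median, and -0.48 within groups with adjusted permutation p = 0.338.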

How the data were processed

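Total RNA of liver was hybridised to Illumina bead arrays, 1 per sample. The authors' deposited intensity values are linear and background-subtracted; their quantiles differ between arrays, so no normalisation had been applied. Detection p-values stand beside them in the deposited tables, per the file headers. The authors also deposited quantile-normalised intensity values, used as an alternative. Per the submitters' processing notes the software was BeadStudio, with a version not given in the sources used here. Each sex was corrected and normalised on its own by limma's neqc (version 3.58.1, R 4.3.3; offset 16, negative controls inferred from detection p). The filter required detection (p under 0.05) on 4 or more of 16 arrays, which left 12561 probes in females and 12173 in males. Each fit held the 4 groups of a sex (lmFit, eBayes with an intensity trend), two-sided, with Benjamini-Hochberg adjustment over all probes tested at 0.05. The number of arrays limits the precision. The labels call the arrays biological replicates and name no litter, so p-values may be too small if siblings share a group. Features are probes, except in the gene lists, which use the brightest probe per gene. The genes named are every member probe, the genes most alike and list members past the threshold, plus Srebf1, Mbtps1 and Mbtps2. Members and lists were chosen with earlier results of these data known; lists lost some names after the files were opened. Some items are not reported here. Alternatives covered normalisation, filter, covariate, block, weights and single arrays left out. The procedure was tested on simulated data. Plots used matplotlib 3.10.9 (Python 3.11.15).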

Additional observations from a re-analysis of the deposited data

Results flagged for a closer look

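In 64 sets of 4 arrays, 1 per probe and group, 5 held an array far from the other 3 by the gap between them. For normally distributed values chance flags about 1 set in 20. Probes of a gene share arrays, so the sets are not independent and the count is no test. The Insig1 probe ILMN_2895388 read 6.51 on high-fat 9% female replicate 2, against 9.13 to 9.57 on the other 3. The Insig1 probe ILMN_1245272 read 10.15 on control 18% female replicate 1, against 9.02 to 9.21 on the others, and 6.69 on control 9% male replicate 2, against 8.73 to 9.05. The Insig2 probe ILMN_2690256 read 12.30 on control 9% female replicate 2, against 10.91 to 11.09. The Srebf2 probe read 6.55 on high-fat 9% male replicate 2, against 5.48 to 5.66.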

How the results depend on the processing

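Of the counts of member probes called, 9 of 10 (each sex and comparison) stayed at 0 in every setting run. In females of mothers on 9%, high-fat against control diet gave 1 call (Insig1 ILMN_2895388), and 0 with mean raw intensity as a covariate (-1.32), with only the groups compared (-1.99) or without the 4 dimmest female arrays (-1.31, a setting chosen after seeing the data that keeps 1 high-fat 9% array, so its calls say nothing about stability); it gave 0 to 2 when single arrays were left out. It gave 0 without control 9% replicate 1, 3 or 4 or high-fat 9% replicate 3, and 2 without control 9% replicate 2, when Insig2 ILMN_1234858 also passed (1.81). The contrast was known when the genes were chosen, so these calls are a description and no test. The cause of these changes was not tested, and brightness and diet could not be fully told apart. With a replicate block the count was 1 (-1.99), and the block changed no other call of a member; same-numbered arrays of different groups had r of -0.18 to 0.33 in females and -0.15 to 0.48 in males, with 10 of 24 over 0.1 in each, and 7 and 9 of 16 arrays correlated best with their own number. In that comparison the enzymes of cholesterol and fatty acid synthesis each had 5 genes past the threshold with only the groups compared, against 2 and 3. Over all probes, the female comparison after 9% gave 555 calls, 308 with no filter, 283 with only the groups compared, 3 with the covariate, 0 without the 4 dimmest arrays, with 1 array in the high-fat 9% group, and 127 to 808 leaving out 1 array. After 18% it gave 8, with 0, 3 and 2 for the covariate, the groups compared and without the dimmest arrays, and 0 to 18 leaving out 1. In males it gave 26 after 9%, with 12 for the covariate, 17 for the replicate block, 11 for the brightest probe, 3 for the groups compared, 60 with array weights and 10 to 39 leaving out 1, and 72 after 18%, with 30 for the covariate, 131 with array weights and 14 to 97 leaving out 1. The comparisons of maternal diets and the interactions gave 0, with at most 5 in any setting.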
